A study of Oryza sativa with 36 samples.

Results

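Gene expression at floret stage 1 was compared between OsEPF1-oe, a transgenic rice line of the cultivar IR64 labelled as overexpressing OsEPF1, and IR64 wild type plants. Stage 1 is the first of 5 numbered stages of developing florets. The comparison comprised every library labelled stage 1, which is 6 of the 36 libraries of the series, 3 of OsEPF1-oe and 3 of IR64. The other 30 libraries cover stages 2 to 5 and mature florets of both lines in the same numbers. Both lines were raised under a 12 h photoperiod, with day and night temperatures of 30 and 24 °C and a relative humidity of 60%. Developing florets were taken about 75 to 85 days after sowing, and each replicate of developing florets held RNA mixed from 3 plants. The mature libraries of both lines came from older plants, with a listed age of 95 days counted from sowing. The sources used here do not give the promoter of the transgene, whether the line is a single transformation event, or whether the same plants supplied more than one stage. The count of OsEPF1 does not separate transcripts of the transgene from those of the plant's own gene.

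Stomata are pores in the plant epidermis, each bounded by a pair of guard cells, and in grasses a pair of subsidiary cells flanks them. Basic helix-loop-helix transcription factors carry the lineage forward in steps: SPEECHLESS (SPCH) proteins start it, MUTE commits the precursor and FAMA completes guard cell differentiation, each together with a partner of the ICE1/SCRM type. EPF1 and EPF2, secreted peptides of the epidermal patterning factor (EPF) family, act through receptors of the ERECTA family and TMM to restrain the formation of stomata. Plants with raised EPF1 form fewer stomata on their leaves. In rice florets the lemma and palea enclose the floral organs, and stomata can form in their epidermis.

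The 6 stage 1 libraries held 23377681 to 38609785 counted reads. OsEPF1-oe libraries held 25286018 to 28978428 and IR64 libraries 23377681 to 38609785. Levels are given as CPM, the reads of a gene scaled to a library size that was adjusted by the trimmed mean of M values (TMM), and are not corrected for gene length. Across genes, Pearson's correlation of log2 CPM between libraries was 0.983 to 0.991 within a line and 0.982 to 0.987 between the lines. The 11 floret marker genes, all of them transcription factors of floral organs, were detected in all 6 libraries. Their lowest single value was 71.4 CPM in OsEPF1-oe and 78.0 CPM in IR64, and their summed levels were 2322 to 2414 CPM in OsEPF1-oe and 2349 to 2474 CPM in IR64. Markers of the anther tapetum summed to 15.7 to 20.5 CPM in OsEPF1-oe and 20.8 to 26.01 CPM in IR64, so that the summed levels did not overlap. Of these 6 markers 0 were called, where 0.834% of all tested genes were called, and 3 had a log2 fold change below 0. Between the line means, 1 regulator, TDR, differed by more CPM than the sum did, so the other markers together did not add to the difference. The levels of TDR are given below. Markers of meiocytes summed to 300.5 to 321.7 CPM in OsEPF1-oe and 305.0 to 388.8 CPM in IR64. Shoot meristem markers summed to 227.8 to 242.8 CPM in OsEPF1-oe and 205.7 to 241.1 CPM in IR64. For green tissue the sums were 57.2 to 142.5 CPM in OsEPF1-oe and 64.6 to 111.5 CPM in IR64. Those of the secondary wall were 17.6 to 23.5 CPM in OsEPF1-oe and 23.0 to 27.2 CPM in IR64. The part of the tapetum markers' difference in the results was not tested. Because whole florets were sequenced, fewer cells of a type and less RNA per cell cannot be told apart in any result below.

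OsEPF1 (Os04g0637300 on chromosome 4) stood at 1237, 1224 and 1001 CPM in the OsEPF1-oe libraries, against 2.27, 2.50 and 1.23 CPM in IR64. The lines were far apart and the libraries carry the line they are labelled with. The log2 fold change of OsEPF1-oe over IR64 was 9.15 ± 0.27 (SE), a 568-fold difference, with an adjusted p of 7.66e-20. Stage 1 held the lowest transcript level of the series in the overexpressing line: OsEPF1-oe florets had 1466 to 1762 CPM at stage 2. Their range was 2197 to 2654 CPM in stage 3 and 2362 to 3027 CPM in stage 4 libraries, 2759 to 3773 CPM in stage 5 libraries and 2945 to 3050 CPM when mature. In IR64, the gene was at 1.65 to 2.11 CPM at stage 2 and at 0.261 to 0.725 CPM at stage 5. The log2 fold change at stage 1 was lower than the mean of stages 2 to 5 by a tested difference of -2.17 ± 0.25 (adjusted p = 3.79e-05).

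OsEPF2 (Os04g0457700), which encodes a related secreted peptide, was at 0.457, 0.613 and 1.08 CPM in OsEPF1-oe, against 4.45, 5.40 and 4.81 CPM in IR64. All libraries of OsEPF1-oe lay below all libraries of IR64, and the transcript fell by 2.76 on the log2 scale (SE 0.37, adjusted p = 1.33e-04). The transcript was called lower at each of stages 2 to 5 as well, and mature florets of both lines had 0 counts of it. OsMUTE (Os05g0597000), the factor of precursor commitment, was at 0, 0.0361 and 0.0327 CPM in OsEPF1-oe, against 1.76, 1.23 and 1.35 CPM in IR64. In counts this was 2 reads summed over the OsEPF1-oe libraries and 146 over the IR64 libraries, a level 68.2-fold lower in OsEPF1-oe with a 95% exact interval of 18.6 to 569, which covers counting error only. The adjusted p of OsMUTE was 1.22e-04. OsMUTE therefore was nearly undetected in OsEPF1-oe florets from the first stage sampled, and the same held at stage 2, with 4 reads in OsEPF1-oe and 185 in IR64, and at stage 3, with 5 and 277.

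The other factors of the lineage did not pass the test at stage 1. OsFAMA (Os05g0586300), which completes guard cell differentiation, had 1 read over the OsEPF1-oe libraries and 20 over the IR64 libraries, a ratio of 18.7 lower in OsEPF1-oe with a 95% exact interval of 2.99 to 775 and an adjusted p of 0.186. IR64 florets held little of this transcript at stage 1, 0.216 ± 0.092 CPM (SD, n = 3), and 0.711 CPM on average at stage 2. At stage 2, where OsEPF1-oe had 1 read and IR64 had 72, OsFAMA was called lower (adjusted p = 0.00342). OsSPCH1 (Os06g0526100), which acts at the start of the lineage, was at 1.19, 2.17 and 1.67 CPM in OsEPF1-oe, against 4.15, 4.37 and 3.31 CPM in IR64. The libraries did not overlap, as in 14.2% of all tested genes, but the log2 fold change of -1.24 ± 0.45 had an adjusted p of 0.342. Its paralogue OsSPCH2 (Os02g0257500) was at 4.93, 6.75 and 5.82 CPM in OsEPF1-oe, against 5.21, 5.96 and 6.73 CPM in IR64, with overlapping libraries and a log2 fold change of -0.03 ± 0.24. The partner OsICE1 (Os11g0523700) was at 127.8, 134.7 and 135.8 CPM in OsEPF1-oe, against 161.0, 173.0 and 165.5 CPM in IR64, a log2 fold change of -0.33 ± 0.09. Its adjusted p was 0.103 with edgeR and 0.0144 with DESeq2, so the call depends on the tool. The second partner OsSCRM2 (Os01g0928000) was at 64.5 to 75.7 CPM in OsEPF1-oe and 58.7 to 60.9 CPM in IR64, with an adjusted p of 0.431.

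Receptors and signalling genes of the pathway gave no call at stage 1. The receptor-like gene OsTMM (Os01g0623000) was at 6.93 to 9.24 CPM in OsEPF1-oe and 10.2 to 13.5 CPM in IR64, with a log2 fold change of -0.59 ± 0.24 and an adjusted p of 0.481. The receptor kinase OsER1 (Os06g0203800) was at 519.4, 562.8 and 653.0 CPM in OsEPF1-oe, against 597.7, 527.0 and 648.6 CPM in IR64, and its libraries overlapped. The kinase MKK4 (Os02g0787300) was at 29.3 to 34.4 CPM in OsEPF1-oe and 37.4 to 38.8 CPM in IR64, with a log2 fold change of -0.29 ± 0.17 and an adjusted p of 0.854. The kinases OsMKKK10 (Os04g0559800) and MPK3 (Os03g0285800) had log2 fold changes of -0.11 ± 0.22 and -0.33 ± 0.57. The GRAS-family regulators SHR1 (Os07g0586900), SHR2 (Os03g0433200), SCR1 (Os11g0124300) and SCR2 (Os12g0122000) had log2 fold changes between -0.10 and 0.08 with overlapping libraries. Of the 17 tested genes of the stomatal development list, 1 was called higher (OsEPF1 itself) and 2 lower, where 0.834% of all tested genes were called. Their median log2 fold change was -0.11, against -0.0059 over all tested genes.

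**Figure D1:**
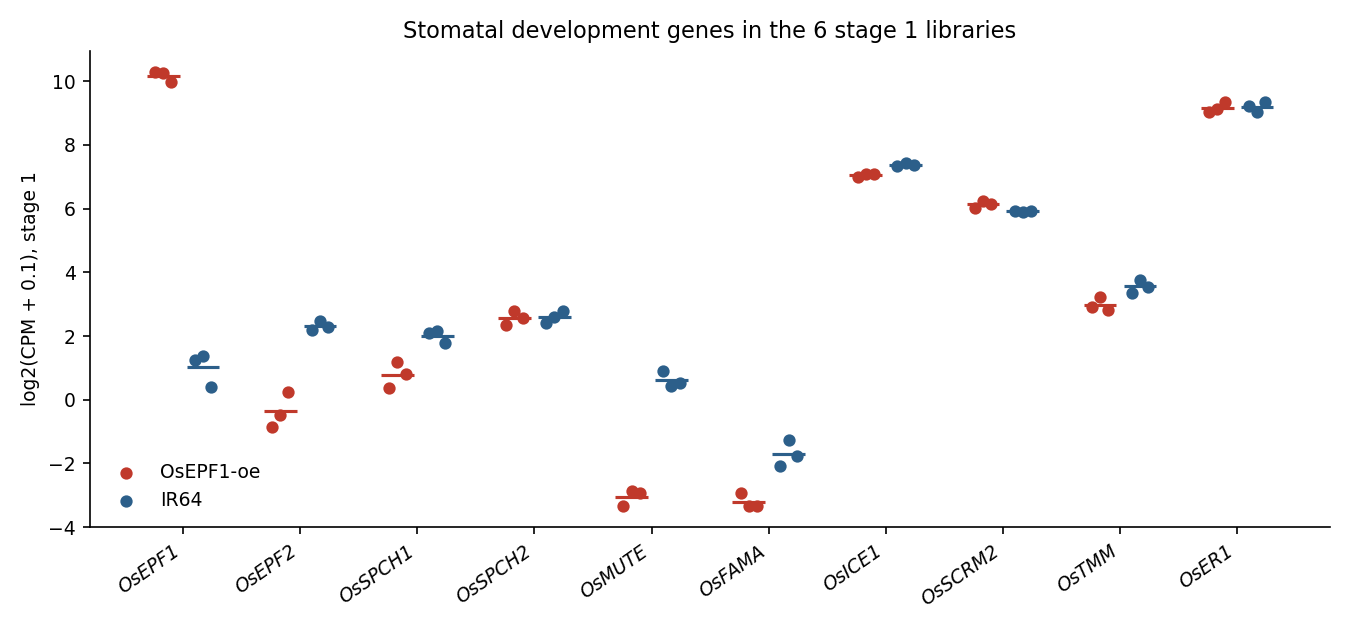
Levels of 10 stomatal development genes in the 6 stage 1 libraries, as log2(CPM + 0.1); each point is a library, each bar the mean of 3 log2 values, OsEPF1-oe in red to the left of IR64 in blue. OsEPF1 separated the lines most, OsEPF2 and OsMUTE were lower in all 3 OsEPF1-oe libraries, and OsSPCH2 and OsER1 overlapped.

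Among 26726 tested genes, 223 (0.834%) were called at an adjusted p under 0.05, 129 of them higher in OsEPF1-oe (0.483%) and 94 lower (0.352%). The difference was at least 2-fold for 88 of the higher and 59 of the lower genes, and the median log2 fold change was 1.65 among the higher and -1.21 among the lower genes. Of the called genes, 40 averaged under 1 CPM, 103 between 1 and 10 CPM, 71 between 10 and 100 CPM and 9 at least 100 CPM. All tested genes numbered 7029, 6716, 10901 and 2080 in these ranges. In 7 called genes all IR64 libraries were at 0 counts, and in 3 all OsEPF1-oe libraries were. Among all tested genes, 330 were at 0 in IR64 only and 383 in OsEPF1-oe only. At an unadjusted p under 0.05 there were 1959 genes (7.33%), 983 higher (3.68%) and 976 lower (3.65%). The libraries of the lines did not overlap in 218 of the 223 called genes, and in 14.2% of all tested genes. DESeq2 called 378 genes (1.41%). The count rests on single libraries: it was 119 without IR64 replicate 1, 138 without OsEPF1-oe replicate 2, 147 without IR64 replicate 2, 148 without IR64 replicate 3, and 202 and 203 without OsEPF1-oe replicates 3 and 1. Without OsEPF1-oe replicate 3, 77.7% of the calls were higher genes, against 57.8% with all libraries.

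**Figure D2:**
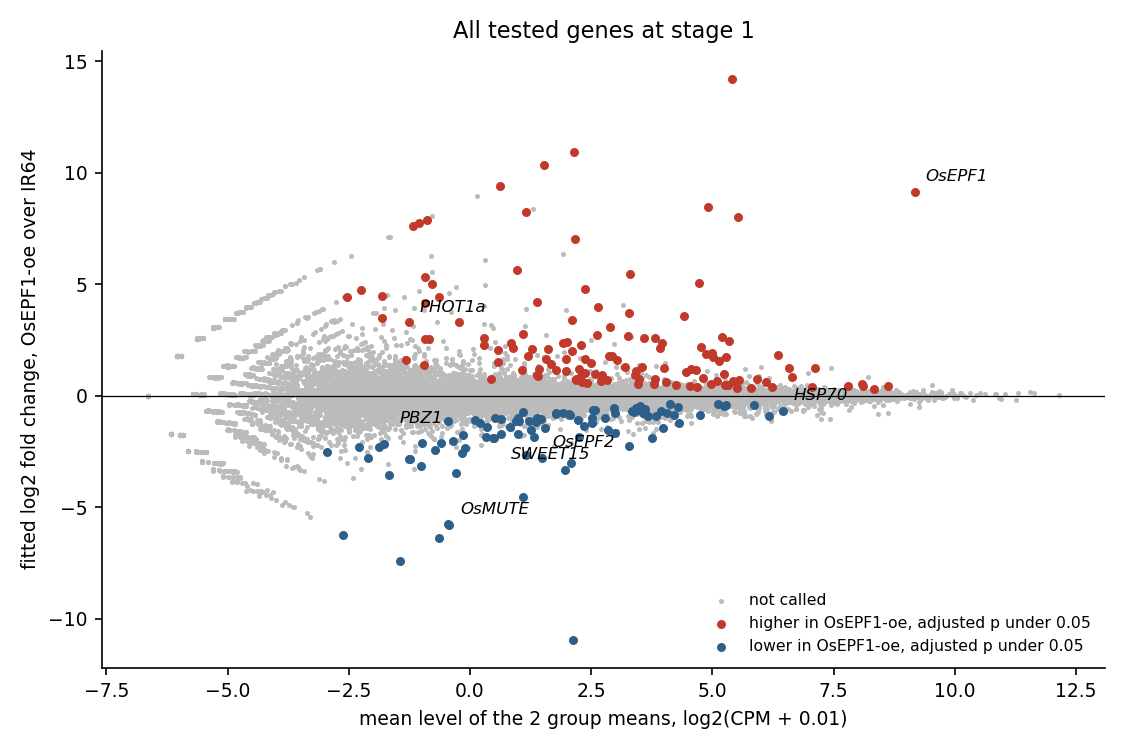
Fitted log2 fold change of OsEPF1-oe over IR64 against the mean level of the 2 group means, as log2(CPM + 0.01), for all 26726 tested genes at stage 1. The 129 genes called higher are red and the 94 called lower are blue, and OsEPF1 combined a high level with a log2 fold change of 9.15.

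Among called genes that averaged at least 2 CPM and whose libraries did not overlap between the lines, the 2 largest log2 changes in each direction belonged to IDs to which no name could be given. Os03g0629800 was at 84.6, 87.8 and 80.8 CPM in OsEPF1-oe and at 0 in all IR64 libraries, 7683 reads against 0. Set against 3 counts over the IR64 group, it was at least 2740-fold higher in OsEPF1-oe. The presence in one line and absence in the other faded with floret age: Os03g0629800 had 6744 reads in OsEPF1-oe and 6 in IR64 at stage 2, 3963 and 155 at stage 5, and 13818 and 8422 when mature, where its log2 fold change was 0.31 (adjusted p = 0.562). Os03g0105500 was at 10.6, 5.77 and 9.97 CPM in OsEPF1-oe and at 0 in IR64, 814 reads against 0 and at least 290.3-fold higher. In the opposite direction, Os11g0306400 was at 0 in all OsEPF1-oe libraries, against 5.44, 8.89 and 11.8 CPM in IR64, 0 reads against 793 and at least 247-fold lower. Os07g0589200 was at 0.457, 1.19 and 0.490 CPM in OsEPF1-oe, against 7.43, 7.30 and 6.50 CPM in IR64, a log2 fold change of -3.33 ± 0.37 (adjusted p = 1.65e-06). Os07g0589200 was called lower at stages 2 and 3 also, and its log2 fold change was -0.01 at stage 5.

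The 23 gene lists held 330 tested genes, and 8 of these were called, OsEPF1, OsEPF2 and OsMUTE among them, where 0.834% of all tested genes were called. The other 215 calls were in no list. PHOT1a (Os12g0101800), a phototropin that senses blue light, was at 1.13, 0.289 and 0.817 CPM in OsEPF1-oe, against 0.0695, 0.141 and 0 CPM in IR64. It was higher in all OsEPF1-oe libraries, with a log2 fold change of 3.32 ± 0.68 (adjusted p = 0.00986), and was called at no other stage, where its adjusted p was 0.0985 at stage 2. The difference between stage 1 and the mean of stages 2 to 5 was not past the threshold (adjusted p = 0.609). The reads were few, 70 against 7, and the call was lost if OsEPF1-oe replicate 1 was left out (adjusted p = 0.0719), and likewise for IR64 replicate 1 (0.0933) and IR64 replicate 3 (0.0670). PHOT1b (Os11g0102900), its close paralogue, was at 109.1 to 130.7 CPM in OsEPF1-oe and 108.6 to 132.5 CPM in IR64, and reads of so similar a pair may be split between them. The other 8 tested genes of the guard cell function list, which holds ion channels and kinases, gave no call.

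The chaperone HSP70 (Os03g0821100) was at 63.3, 60.8 and 78.7 CPM in OsEPF1-oe, against 103.3, 112.4 and 106.7 CPM in IR64. It fell by 0.67 on the log2 scale (SE 0.11, adjusted p = 9.21e-04), was lower by 0.49 to 0.65 and called at each of stages 2 to 5, and had a log2 fold change of -0.15 in mature florets. The rest of the heat shock list did not follow: HSP82A (Os08g0500700) was at 570.6, 586.2 and 649.6 CPM in OsEPF1-oe, against 699.7, 525.6 and 714.5 CPM in IR64. None of the 5 tested members other than HSP70 was called, where 0.834% of all tested genes were. PBZ1 (Os12g0555500), a pathogenesis-related protein, was at 0.518, 0.217 and 0.457 CPM in OsEPF1-oe, against 1.41, 1.73 and 1.00 CPM in IR64, a log2 fold change of -1.77 ± 0.39 (adjusted p = 0.02). Of the 22 tested genes of jasmonate signalling and defence, PBZ1 was the 1 call, where 0.834% of all tested genes were called. In 16 the log2 fold change was below 0, and their median was -0.24, against -0.0059 over all tested genes. SWEET15 (Os02g0513100), a sucrose transporter known from filling grains, was at 1.22, 0.469 and 0.457 CPM in OsEPF1-oe, against 2.64, 1.94 and 2.54 CPM in IR64, a log2 fold change of -1.70 ± 0.37 (adjusted p = 0.0177). PBZ1 and SWEET15 were called lower at each of stages 2 to 5 too. PHO1-2 (Os02g0809800), a phosphate transporter, was at 0.457, 0.577 and 0.327 CPM in OsEPF1-oe, against 1.09, 0.705 and 1.19 CPM in IR64, with a log2 fold change of -1.14 ± 0.24 (adjusted p = 0.0135) and no call at any other stage.

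The calls of PBZ1, SWEET15 and PHO1-2 were not kept under all alternatives. Leaving out 1 library at a time, the adjusted p was above the threshold for PBZ1 without OsEPF1-oe replicate 2 (0.144), OsEPF1-oe replicate 3 (0.0532), IR64 replicate 1 (0.0875) or IR64 replicate 2 (0.105). For SWEET15 this was so without OsEPF1-oe replicate 2 (0.133), OsEPF1-oe replicate 3 (0.119), IR64 replicate 1 (0.111) or IR64 replicate 3 (0.0603), and for PHO1-2 without OsEPF1-oe replicate 1 (0.0526), OsEPF1-oe replicate 3 (0.113), IR64 replicate 1 (0.110) or IR64 replicate 3 (0.0837). Fitted on the 6 stage 1 libraries alone, the adjusted p was 0.0951 for PBZ1, 0.109 for SWEET15 and 0.309 for PHO1-2.

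A further 4 called genes were given a name after their values had been seen. CIPK29 (Os07g0678300), a calcium-regulated protein kinase, was at 59.3, 43.8 and 46.7 CPM in OsEPF1-oe, against 88.7, 109.1 and 84.8 CPM in IR64, a log2 fold change of -0.91 ± 0.16 (adjusted p = 0.00205). The log2 fold change of CIPK29 was -0.61 at stage 2 and -0.12 at stage 5, with no call at any stage after the first. GLP1 (Os08g0460000), a germin-like cell wall protein, was at 3.90, 4.55 and 2.61 CPM in OsEPF1-oe, against 12.4, 11 and 8.46 CPM in IR64. GLP1 had a log2 fold change of -1.53 ± 0.23 (adjusted p = 1.33e-04) and was called lower at each of stages 2 to 5. The fermentation enzyme ADH1 (Os11g0210300) was at 435.2, 507.8 and 428.4 CPM in OsEPF1-oe, against 337.0, 353.3 and 321.1 CPM in IR64, a log2 fold change of 0.44 ± 0.10 (adjusted p = 0.0280). HSP81-2 (Os09g0482600), an HSP90-type chaperone, was at 9.90, 5.74 and 9.70 CPM in OsEPF1-oe, against 15.9, 33.5 and 19.5 CPM in IR64, with an adjusted p of 0.0421, and near-identical copies make its count uncertain. The calls of CIPK29 and GLP1 held whichever library was left out. That of ADH1 was lost without any one of IR64 replicates 1, 2 and 3 or OsEPF1-oe replicate 2 (adjusted p 0.0625 to 0.242), and that of HSP81-2 without any one of IR64 replicates 2 and 3 or OsEPF1-oe replicates 1, 2 and 3 (0.0670 to 0.332).

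Photosynthesis genes were mostly a little lower in OsEPF1-oe, without a call. Of 34 tested genes, 29 had a log2 fold change below 0, with a median of -0.57 against -0.0059 over all tested genes. edgeR called 0 of them and DESeq2 called 3 (1.41% over all tested genes), and at an unadjusted p under 0.05 there were 16 lower and 1 higher, where 3.65% and 3.68% of all tested genes were. LHCB4 (Os07g0558400), a minor antenna protein of photosystem II, was at 14.8, 11.1 and 6.47 CPM in OsEPF1-oe, against 20.5, 24.1 and 15.3 CPM in IR64, a log2 fold change of -0.89 ± 0.26 (adjusted p = 0.122). LHCA1 (Os06g0320500), an antenna protein of photosystem I, was at 14.1, 13.1 and 5.65 CPM in OsEPF1-oe, against 20.6, 26.1 and 14.9 CPM in IR64 (adjusted p = 0.132). The chlorophyll-binding proteins CAB2R and CAB1R, similar copies whose reads may be split, differed in direction. CAB2R (Os01g0600900) was at 8.04, 4.94 and 1.57 CPM in OsEPF1-oe, against 15.1, 21.8 and 5.77 CPM in IR64, and CAB1R (Os09g0346500) was at 94.2, 85.6 and 34.1 CPM in OsEPF1-oe, against 41.3, 40.1 and 12.5 CPM in IR64. Summed over the list, the level was 509.2, 423.1 and 267.5 CPM in OsEPF1-oe, against 508.7, 606.4 and 423.3 CPM in IR64. The sums overlapped, and OsEPF1-oe replicate 3 was the lowest library. Without it, 29 genes were still below 0, the median was -0.37 and 7 were lower at an unadjusted p under 0.05, and with the 6 stage 1 libraries fitted alone 8 were. The part of that library in the result was not tested further.

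Genes that specify floral organs had log2 fold changes between -0.43 and 0.5. Of the 21 tested genes of floral organ identity, edgeR and DESeq2 each called 0. At an unadjusted p under 0.05, 6 were lower and 0 higher, where 3.65% and 3.68% of all tested genes were. The E-class gene MADS1 (Os03g0215400) had a log2 fold change of 0.03, MADS5 (Os06g0162800) 0.18, MADS6 (Os02g0682200) 0.13 and MADS15 (Os07g0108900) 0.16. The C-class gene MADS58 (Os05g0203800) was at 17.5, 17.5 and 16.7 CPM in OsEPF1-oe, against 21.2, 22.6 and 23.1 CPM in IR64, a log2 fold change of -0.37 ± 0.12 (adjusted p = 0.215). MADS7 (Os08g0531700), an E-class gene, was at 277.9, 288.9 and 266.5 CPM in OsEPF1-oe, against 328.3, 336.8 and 321.0 CPM in IR64 (adjusted p = 0.476). For both genes the libraries of the lines did not overlap, as in 10 of the 21 tested genes of the list and 14.2% of all tested genes. Both log2 differences were under 0.4.

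Of 19 tested genes of meristem and panicle form, edgeR called 0 and DESeq2 called 2, where the tools called 0.834% and 1.41% of all tested genes. At an unadjusted p under 0.05, 2 were higher and 1 lower, against 3.68% and 3.65% of all tested genes. FON1 (Os06g0717200), a receptor kinase that limits the size of the floral meristem, was at 42.5, 41.0 and 36.6 CPM in OsEPF1-oe, against 53.9, 53.3 and 54.4 CPM in IR64, a log2 fold change of -0.43 ± 0.12. Its adjusted p was 0.0957 with edgeR and 0.0197 with DESeq2. GS3 (Os03g0407400), a G protein subunit that limits grain length, was at 92.3, 103.3 and 112.2 CPM in OsEPF1-oe, against 78.4, 74.5 and 79.4 CPM in IR64, with an adjusted p of 0.123 with edgeR and 0.0305 with DESeq2. In both, the lines did not overlap, as in 8 of the 19 tested genes of the list and 14.2% of all tested genes. The call of FON1 and of GS3 depends on the tool.

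The remaining 14 lists without a call held 165 tested genes, of which edgeR and DESeq2 each called 0. At an unadjusted p under 0.05, 8 were higher and 5 lower, near the shares of 3.68% and 3.65% over all tested genes. They covered meiosis, tapetum and pollen wall, cell cycle, cell wall, cuticle and silica, abscisic acid, the clock and flowering time, growth hormones, diterpenoid and flavonoid synthesis, aquaporins, antioxidant enzymes and reference genes. Of these, the tapetum regulators TDR (Os02g0120500) and TIP2 (Os01g0293100) had adjusted p values of 0.209 and 0.222. TDR was at 9.90, 8.62 and 5.10 CPM in OsEPF1-oe, against 15.6, 13.5 and 12.2 CPM in IR64, and TIP2 at 35.7, 31.8 and 26.8 CPM in OsEPF1-oe, against 49.1, 47.7 and 39.8 CPM in IR64. All 12 cell cycle and DNA replication genes had log2 fold changes between -0.08 and 0.15. The rice actin ACT1 (Os03g0718100) had one of -0.06 and the elongation factor EEF1A (Os03g0177500) one of -0.08.

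**Figure D3:**
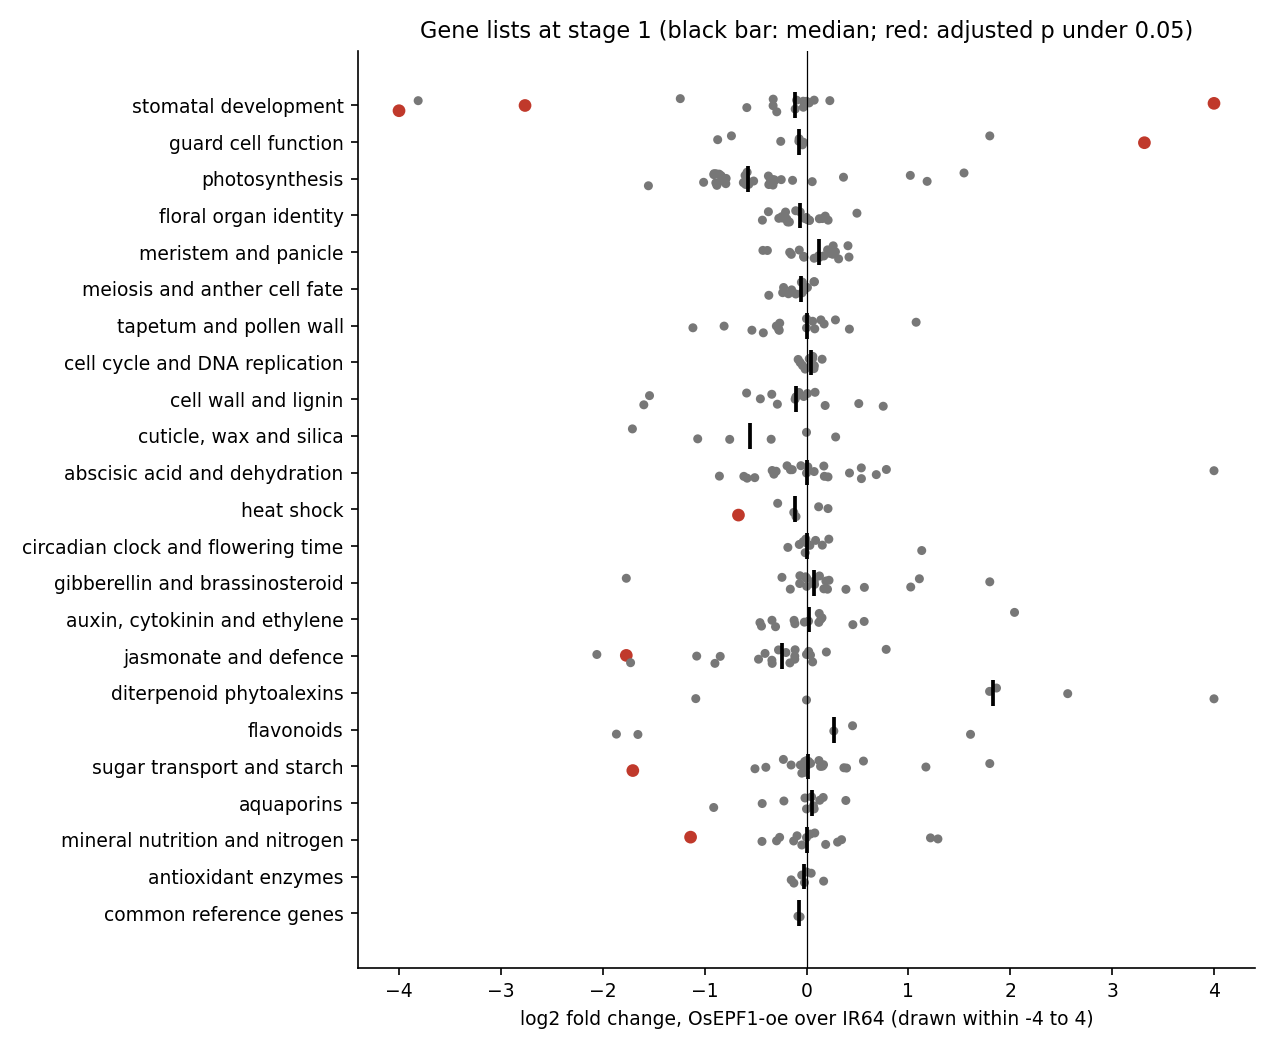
Log2 fold change of OsEPF1-oe over IR64 at stage 1 for the 330 tested list members, 1 row per list; points are genes, red points were called, black bars are medians, and values beyond 4 are drawn at 4. The photosynthesis points lie mostly left of 0 with a median of -0.57 and none is red; the median of the diterpenoid list rests on genes under 2 CPM.

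The stage 1 calls were followed through the other stages, whose libraries are separate from those of stage 1, although all stages share the gene-wise estimate of spread. Of the 223 genes, 137 (61.4%) were called in the same direction at stage 2, which is 43.5% of the 315 genes called there, where 1.18% of tested genes were called. Without OsEPF1-oe replicate 2 the 137 became 89. For stage 3 the same count was 102 (45.7%, and 22.5% of the 453 called there, background 1.69%). Stage 4 shared 104 (46.6%, and 16.4% of 635, background 2.38%) and stage 5 shared 102 (45.7%, and 15.6% of 654, background 2.45%). Without IR64 replicate 1 the stage 5 count became 67. In mature florets it was 27 (12.1%, and 4.99% of 541, background 2.02%). Higher genes recurred in larger shares than lower ones: 86 of 129 (66.7%) against 51 of 94 (54.3%) at stage 2, where 0.46% of all tested genes were called higher and 0.718% lower. At stage 5 it was 73 (56.6%) against 29 (30.9%), where 1.13% were called higher and 1.31% lower. The difference between these shares was not tested. The higher genes had a median log2 fold change of 1.65 at stage 1, 1.19 at stage 2, between 0.97 and 1.05 over stages 3 to 5, and 0.25 in mature florets. For the lower genes it was -1.21 at stage 1, -0.86 at stage 2, between -0.55 and -0.46 over stages 3 to 5, and -0.18 in mature florets. Since the genes were chosen by their stage 1 values, a smaller median elsewhere is no test of a difference.

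Of the 223 genes, 60 were called in the same direction at no other stage and 18 at all 5 other stages. The difference between stage 1 and the mean of stages 2 to 5, tested directly for each gene, passed the threshold for 11 of 26726 genes (0.0412%), and 8 of these were called at stage 1. In 7 of the 8 the stage 1 difference was the larger one, and in the remaining one, OsEPF1, it was the smaller. Since these 8 were also chosen by their stage 1 values, the count of 7 is no test of a direction. At an unadjusted p under 0.05, 1003 genes departed from the mean of stages 2 to 5, and DESeq2 called 49. The 11 became 7 without any one of the 3 IR64 stage 1 libraries and 18 without OsEPF1-oe replicate 3.

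**Figure D4:**
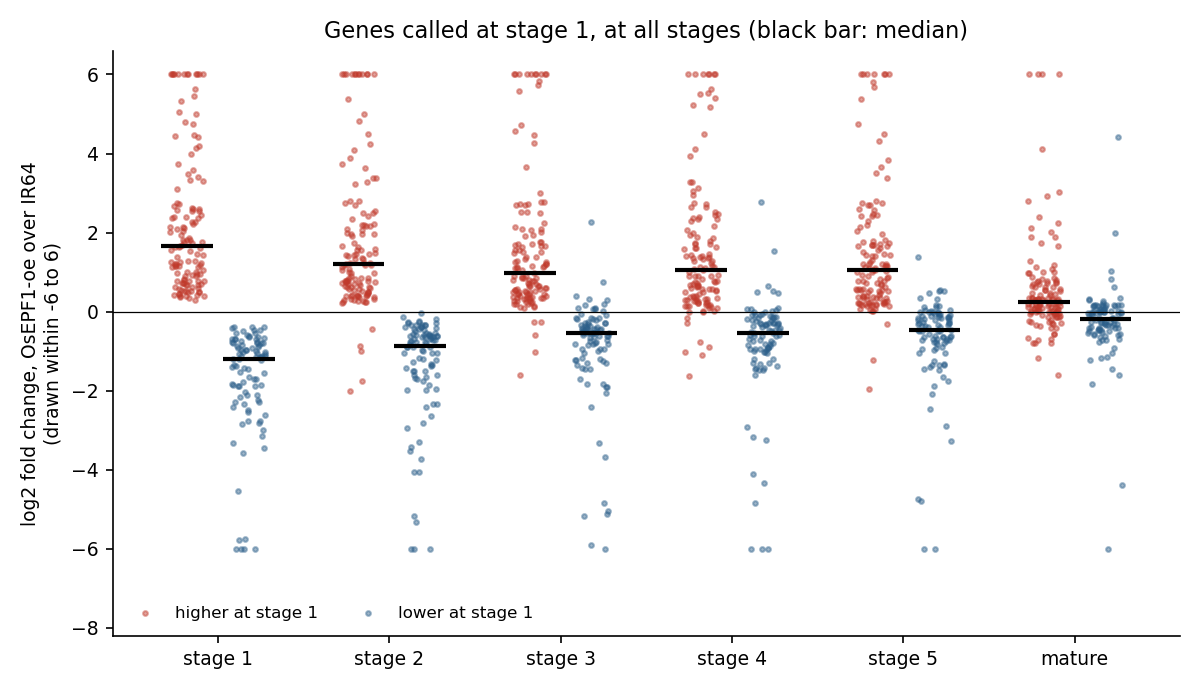
Log2 fold change of OsEPF1-oe over IR64 at all 6 stages for the 129 genes called higher at stage 1 (red) and the 94 called lower (blue); each point is a gene, black bars are medians, and values beyond 6 are drawn at 6. The medians stay above 0 for the red and below 0 for the blue genes through stage 5 and lie near 0 in mature florets, at 0.25 and -0.18.

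Called genes were spread over all 12 chromosomes, at 0.337% of tested genes on chromosome 9 and 1.35% on chromosome 11. Tested genes were ordered by ID number, which follows position along the chromosome in the rice gene annotation. In 14 of 26714 neighbouring pairs both genes were called, in 12 of them in one direction. The 0.834% called over all tested genes is a share of single genes, so it is no background for a count of pairs. At 4 places at least 3 called genes lay close together, with no more than 10 tested genes between them. The place on chromosome 4 was near OsEPF1: 5 of 6 neighbouring genes, lying 15 to 20 tested genes before OsEPF1, were higher in OsEPF1-oe by log2 fold changes of 2.15 to 5.63. Within 30 tested genes on either side of OsEPF1, 6 genes were called, all higher, where 0.834% of all tested genes were called. In all 6 the lines did not overlap, as in 218 of the 223 called genes and 14.2% of all tested genes. The 54 others in this window had a median log2 fold change of 0.006. The genes between this group and OsEPF1 were 14, with no call. Between 3 and 5 of the 6 were called at each of stages 2 to 5, 1 of them in the opposite direction at stage 4, and 0 in mature florets. On chromosome 6, 4 of 4 neighbouring genes were higher by 1.55 to 2.59, on chromosome 8, 3 of 3 by 1.20 to 2.13, and on chromosome 2, 2 of 5 were higher and 2 lower. These places were found after the values had been seen, and whether called genes lie together more often than other genes was not tested.

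**Figure D5:**
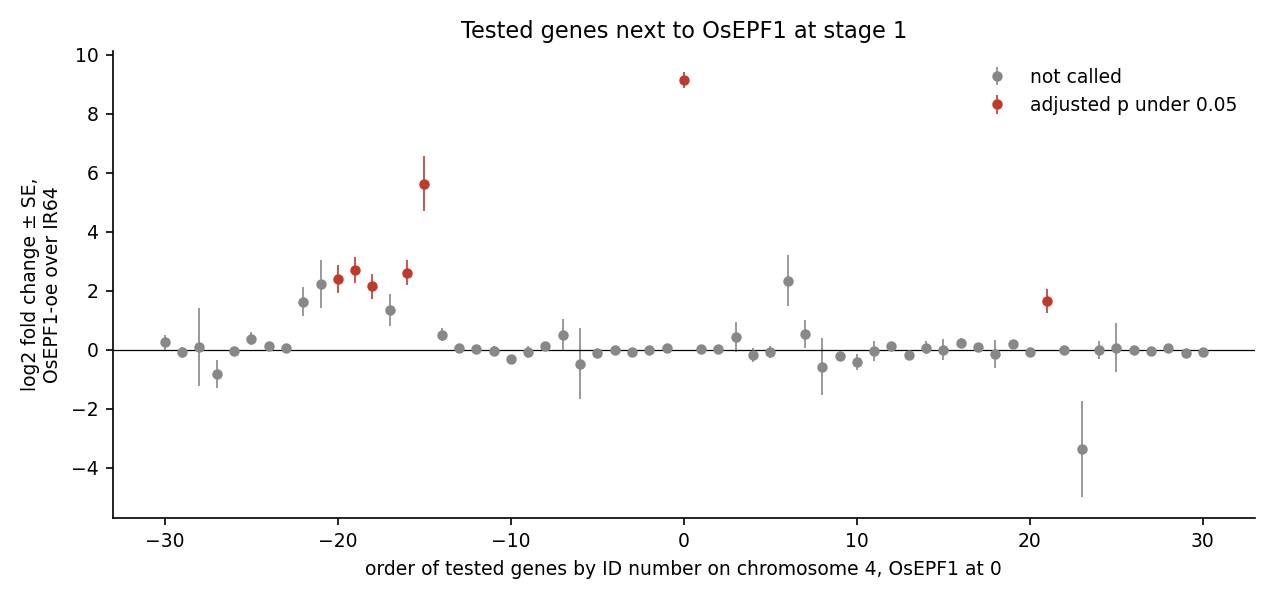
Log2 fold change of OsEPF1-oe over IR64 at stage 1, with its SE as bars, for OsEPF1 and the 30 tested genes on either side, in ID order along chromosome 4. OsEPF1 stands at 9.15, and the called genes (red) other than OsEPF1 include 5 that lie 15 to 20 tested genes before it, with 14 uncalled genes in between.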

How the data were processed

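The authors deposited raw read counts of 37862 gene IDs in 36 libraries. The submitters' processing notes name the IRGSP-1.0 build and, as tools, featureCounts, Subread 2.0.0, HISAT2 2.1.0 and Trimmomatic 0.38. Strand and multimapping settings are not given in the sources consulted, so overlapping, antisense and near-identical genes are uncertain. Per the labels' protocols, RNA was treated with DNase, and libraries were made from poly(A) RNA with an NEBNext Ultra kit.

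The counts were tested with edgeR 4.0.16 (R 4.3.3). After filterByExpr over the 12 groups, 26726 genes remained. TMM scaling was followed by a robust quasi-likelihood fit of 1 mean per group over all 36 libraries, with no covariates and 24 residual degrees of freedom. The spread is thus shared with groups outside stage 1. Comparisons were OsEPF1-oe minus IR64 at each stage, and stage 1 minus the mean of stages 2 to 5. Genes were called where p, adjusted by Benjamini and Hochberg's method across every tested gene, was under 0.05. The SE of a log2 fold change was derived from this test, as the size of the change divided by the square root of the F statistic. "Adjusted p" means this test unless DESeq2 1.42.0 is named. Where a group had 0 counts, the fold is a bound against 3 counts over the group, and a group with 1 to 3 counts is given a ratio and its 95% exact interval. No stage 1 libraries of a line were identical, and the labels' protocols call the replicates biological. Each replicate of developing florets came from 3 plants, and no number of plants is given for mature florets. Total counts were 23377681 to 38609785 per stage 1 library.

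The table does not pair IDs with names, and the RefSeq table (assembly ASM3414082v1) held 1 of the 37862 IDs. General knowledge of rice supplied the names, as 364 pairs of an ID and a symbol in 23 lists. Of these, 253 symbols were in that table, 242 on the same chromosome at the same relative rank within 0.02. The 9 on another chromosome were dropped, and 111 symbols, among them OsEPF1, OsEPF2, the SPCH, MUTE and FAMA genes, OsICE1, OsTMM, OsER1, HSP70 and most photosynthesis genes, could not be checked, so their values belong to the printed IDs. The members and lists were chosen with earlier results of these data known. The text names all called list members, all tested stomatal genes, a few further list members with the smallest p, 5 floral genes with the most reads, and at most 2 unnamed IDs per direction with the largest log2 change among calls that averaged 2 CPM or more and had no overlap between the libraries of the lines. Alternatives were other scalings, filters, DESeq2, a replicate block, the 6 stage 1 libraries alone, and each stage 1 library left out in turn.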

Additional observations from a re-analysis of the deposited data

Results flagged for a closer look

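The difference between the lines at stage 1 departed from the mean difference over stages 2 to 5 in 11 genes by edgeR's test of the interaction, over all tested genes. Of the genes named in the text these were OsEPF1, with -2.17 on the log2 scale (adjusted p = 3.79e-05), Os07g0589200, with -2.19 (adjusted p = 0.0219), and Os03g0629800, with 6.85 (adjusted p = 0.0208). OsEPF1 was higher in OsEPF1-oe at all stages and least so at stage 1. Os07g0589200 averaged 0.713 CPM in OsEPF1-oe and 7.08 CPM in IR64 at stage 1, and 6.79 CPM in OsEPF1-oe and 6.81 CPM in IR64 at stage 5. Os03g0629800 had 0 reads in IR64 at stage 1, so the size of its departure depends on the small count added in the fit and is no measured fold.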

How the results depend on the processing

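The 223 calls at stage 1 became 144 when the 6 stage 1 libraries were fitted alone, of which 110 (49.3% of the 223) were shared, and 378 with DESeq2, of which 220 were shared, and 119 to 203 when 1 library was left out. The higher genes, 129, became 210 with DESeq2 and 75 to 157 with 1 library left out. The lower genes, 94, became 52 with the 6 libraries alone, 168 with DESeq2 and 44 to 98 with 1 library left out. The share of higher genes among the calls, 57.8%, was 68.1% without OsEPF1-oe replicate 2 and 77.7% without OsEPF1-oe replicate 3. All 6 fits with 1 library left out kept 82 of the calls, 57 higher and 25 lower, and 79 of these 82 were called in the same direction at another stage. All 13 alternatives kept 55. Stage 1 calls that recurred at stage 2 (137) became 206 with DESeq2 and 89 to 121 with 1 library left out; at stage 3, 71 to 97 with 1 library left out; at stage 4, 73 to 96 with 1 library left out; at stage 5, 67 to 90 with 1 library left out; in mature florets, 50 with DESeq2 and 18 to 24 with 1 library left out. The genes whose stage 1 difference departed from stages 2 to 5 became 49 with DESeq2, 7 with a minimum of 5 CPM in 3 libraries and 7 to 18 with 1 library left out. The cause of these changes was not tested.

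None of the 223 called genes changed direction under an alternative in which it was fitted. The alternatives were compared for 29 genes: the stomatal genes without OsEPF1, the other called list members, the unnamed IDs and the genes named afterwards. Of these comparisons, 336 kept their side of the threshold, 35 lost the call and 1, OsICE1 with DESeq2, gained it. Outside these 29, CAB2R, LHCB4, LHCA1, FON1 and GS3 also gained a call with DESeq2. Deviations of same-numbered libraries from their group means had correlations of -0.117, 0.106 and 0.045 between the lines. Those of differently numbered libraries lay between -0.24 and 0.22. With 3 libraries a line, these values cannot show whether the replicate numbers pair the libraries. A fit with a replicate block called 160 genes, 134 of them shared with the 223. The block ended the calls of PHOT1a (adjusted p = 0.0588), PBZ1 (0.0784), PHO1-2 (0.101), ADH1 (0.133) and HSP81-2 (0.208). The count of photosynthesis genes under each alternative was chosen after the data had been seen. Genes at a few reads, such as OsFAMA, limit what stage 1 can show.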
